A study of Mus musculus with 4 samples.

Results

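The rodent SINE families were followed as 4 rows of a table of read counts per repeat family: Alu, which in the mouse is the B1 family, B2, B4 and ID. They were chosen by row name, and are 4 of the 47 families of the table and 4 of its 6 SINE families. The counts come from nanoCAGE, a method that selects capped RNA 5′ ends from small amounts of total RNA, at 4 stages of the mouse. These were the fully grown oocyte and, by hours of age, the 2-cell embryo at 48 h, the 8-cell embryo at 68 h and the blastocyst at 92 h. All stages carry 1 strain label, F1 (C57BL/6J X CBA/H), with no other genotype or treatment named. Each stage is 1 sample. The oocyte, 8-cell and blastocyst samples were sequenced in 3 runs each (1.1, 1.2 and 2) and the 2-cell sample in 2 runs (1 and 2). Whether runs hold separate pools of embryos is not stated, and they count here as repeats of 1 sample, for which no SD, p-value or test between stages can be had. A range of runs is a technical or unlabelled spread, and whether stages would differ beyond embryo-to-embryo variation was not tested.

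SINEs are short retrotransposons that encode no protein and move with the machinery of LINE-1 (L1). B1 descends from 7SL RNA, the RNA of the signal recognition particle. B2 and ID descend from transfer RNAs, and B4 joins an ID-like part to a B1-like part. Intact copies carry an internal promoter for RNA polymerase III, whose transcripts do not receive the cap of messenger RNA. Many copies also lie inside genes or near gene promoters and are read as part of RNA polymerase II transcripts. The counts do not separate these sources, and the part of each was not tested.

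The internal promoter is shown by the gene Bc1, regarded as the source gene of rodent ID elements, whose RNA begins with an ID sequence. Its first 50 transcribed bases, from RefSeq on GRCm38.p6, lie at chr7:144914470-144914519 on the plus strand. Capitals mark the 1 match to the A box of RNA polymerase III promoters on the transcribed strand, at bases 14 to 24 of the RNA.

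Bc1: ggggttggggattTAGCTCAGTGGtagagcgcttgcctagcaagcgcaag

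An A box was found on the transcribed strand in 3.12% of 32851 windows of the same length at RefSeq starts, and on either strand in 5.66%. The letters describe the promoter type only. The counts are per family and on mm9 placements, so no count is assigned to Bc1 or to any single copy.

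Run totals ran from 36922 to 1919263 counts. Transposon families (LINE, SINE, LTR and DNA, 34 of the 47) took between 37.9% and 95.1% of a run, and ribosomal RNA between 0.807% and 44.9%. Because rRNA weighs so differently, each SINE value is given as share of all counts, as share of transposon counts, as share of the 4 families together, and as ratio to L1 in the same run. Shares are relative: fewer SINE RNA molecules and more of other repeats cannot be told apart. Levels of different families were not divided by copy number or element length, so an order of families is an order of counts. The oocyte column 1.1 held 2.07 counts per deposited read placement and column 2 held 0.797, against 0.947 to 1.40 in the other 9 runs. With the names of both read files exchanged these would be 1.19 and 1.39. The names in the count table were kept, and both columns belong to the oocyte either way.

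The 4 families together took 5.80%, 8.75% and 9.25% of counts in oocyte runs 1.1, 1.2 and 2. 2-cell runs 1 and 2 had 16.8% and 17.3%. 8-cell runs 1.1, 1.2 and 2 had 20.9%, 17.6% and 18.8%. Blastocyst runs in the same order had 13.4%, 17.9% and 13.99%. Every oocyte run lay below every run of the later stages, and 8-cell and blastocyst runs overlapped. The stage means, in developmental order, were 7.93%, 17.02%, 19.1% and 15.1%. The 4 rows made up between 85.5% and 94.8% of the SINE counts of a run, the remainder being almost all MIR, an old SINE family that no longer moves.

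Among transposon counts alone the same order of means held with smaller steps, 13.4%, 19.7%, 24.1% and 19.5% from oocyte to blastocyst. Oocyte runs ranged from 12.3% to 15.3%, 2-cell runs from 18.3% to 21.0%, 8-cell runs from 19.3% to 31.0% and those of the blastocyst from 16.2% to 25.5%. The oocyte runs again lay below all later runs. The largest value was that of 8-cell run 2, and without it the 8-cell runs were at 19.3% and 21.9%.

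**Figure D1:**
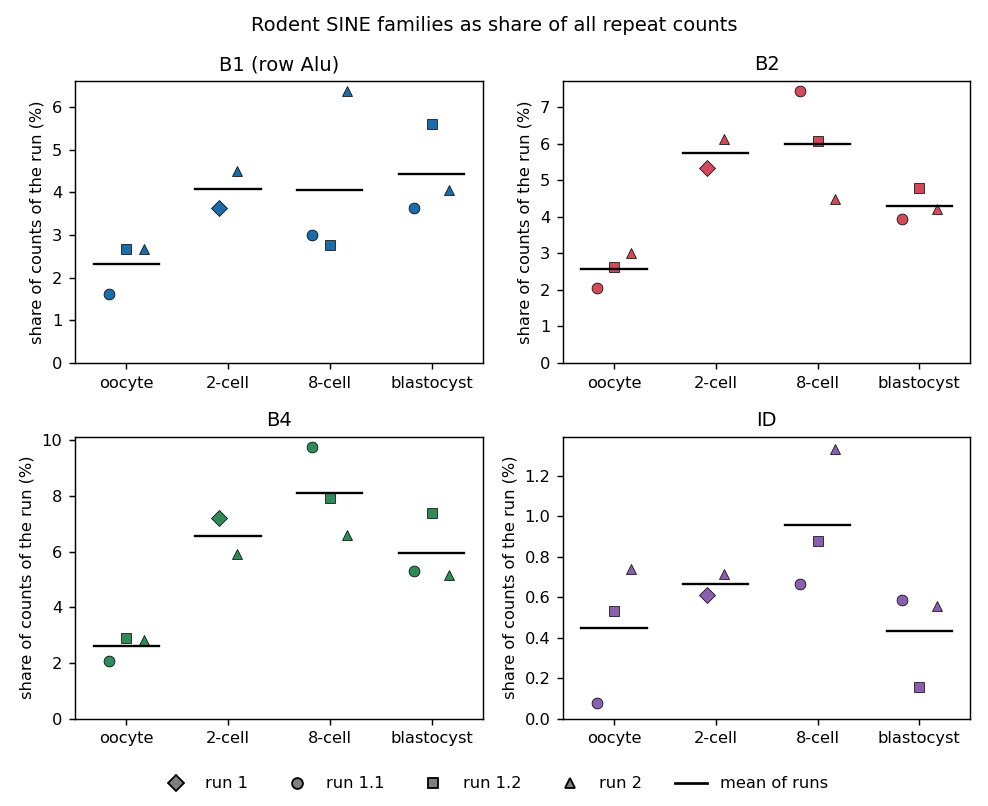
Share of all repeat counts (%, vertical axes) of B1, B2, B4 and ID in each run, by stage. Markers name the run and bars the mean of the runs of a stage. B1, B2 and B4 lie lower in every oocyte run than in any later run, whereas ID ranges from 0.0748% to 0.738% within the oocyte. All 2-cell runs lay above all oocyte runs for 31.6% of 38 families. All 8-cell runs did so for 25% of 36 families, as did all blastocyst runs.

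B4 was the member called in most comparisons of stages, 3 of 5 as share of all counts. All 3 have the same oocyte runs as reference, and 1 of the 3 was chosen after seeing the data. Oocyte runs 1.1, 1.2 and 2 gave B4 2.05%, 2.91% and 2.84% of counts. The 2-cell pair gave 7.19% and 5.92%, the 8-cell trio 9.74%, 7.93% and 6.60%, and the blastocyst trio 5.28%, 7.38% and 5.17%. No oocyte run reached any later run, and within a stage the highest run was at most 1.48 times the lowest. B4 was the largest of the 4 families in 8 of the 11 runs, and B2 in the other 3 (oocyte runs 1.1 and 2 and 2-cell run 2). In oocyte run 1.1 B2 and B4 were apart by less than counting error, at 2.03% to 2.10% and 2.02% to 2.09% (exact 95% intervals).

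For B2 the oocyte trio gave 2.06%, 2.64% and 3.01% of counts, and the 2-cell pair 5.33% and 6.13%. The 8-cell trio gave 7.44%, 6.06% and 4.49%, and the blastocyst trio 3.94%, 4.77% and 4.20%. Its oocyte runs lay below all others, and its blastocyst runs overlapped with 8-cell run 2 only.

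B1 (row Alu) had a wider range within a stage than B2 and B4, up to 2.31-fold at the 8-cell stage. The oocyte trio gave 1.61%, 2.67% and 2.66% of counts, and the 2-cell pair 3.64% and 4.50%. 8-cell runs 1.1, 1.2 and 2 gave 3.01%, 2.76% and 6.37%, and the blastocyst trio 3.63%, 5.61% and 4.06%. Both the lowest and the highest value outside the oocyte were 8-cell runs, with the 8-cell mean of 4.04% between them. As for B2 and B4, the oocyte runs of B1 lay below all later runs, with 2.67% and 2.76% the nearest values.

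ID, the smallest of the 4 in all 11 runs, had the widest range of runs within a stage. The oocyte trio gave 0.0748%, 0.532% and 0.738% of counts, a 9.87-fold range. The 2-cell pair gave 0.612% and 0.715%, the 8-cell trio 0.666%, 0.878% and 1.33%, and the blastocyst trio 0.588%, 0.157% and 0.557%. Counting error does not cover this spread: the 421 counts of oocyte run 1.1 give an exact 95% interval of 0.0678% to 0.0823%, and the 58 counts of blastocyst run 1.2 give 0.119% to 0.203%. Both low runs came from 1 sequencing run, by the read names, which also held oocyte run 2 at 0.738%. They had the highest rRNA share of their stage, 44.9% and 18.4%, while 8-cell run 2, with 26.5% rRNA, had the highest ID share of all. The part of rRNA or of the sequencing run in the ID values was not tested.

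The make-up of the 4 families shows where the runs of a stage part. B1 took 14.4% and 15.6% of the 4 families in 8-cell runs 1.1 and 1.2 and 33.9% in run 2. Elsewhere oocyte runs ranged from 27.7% to 30.5%, blastocyst runs from 27.0% to 31.3%, and the 2-cell pair had 21.7% and 26.1%. B4 took 46.7%, 45.0% and 35.1% in the 8-cell runs, and oocyte runs had 30.7% to 35.4%. The B1 share of 8-cell run 2 lay above that of every other run. The run also had 26.5% rRNA, where 8-cell runs 1.1 and 1.2 had 0.807% and 3.81%, and a median read score of 54, where they had 16 and 28. The part of these differences in its B1 share was not tested.

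**Figure D2:**
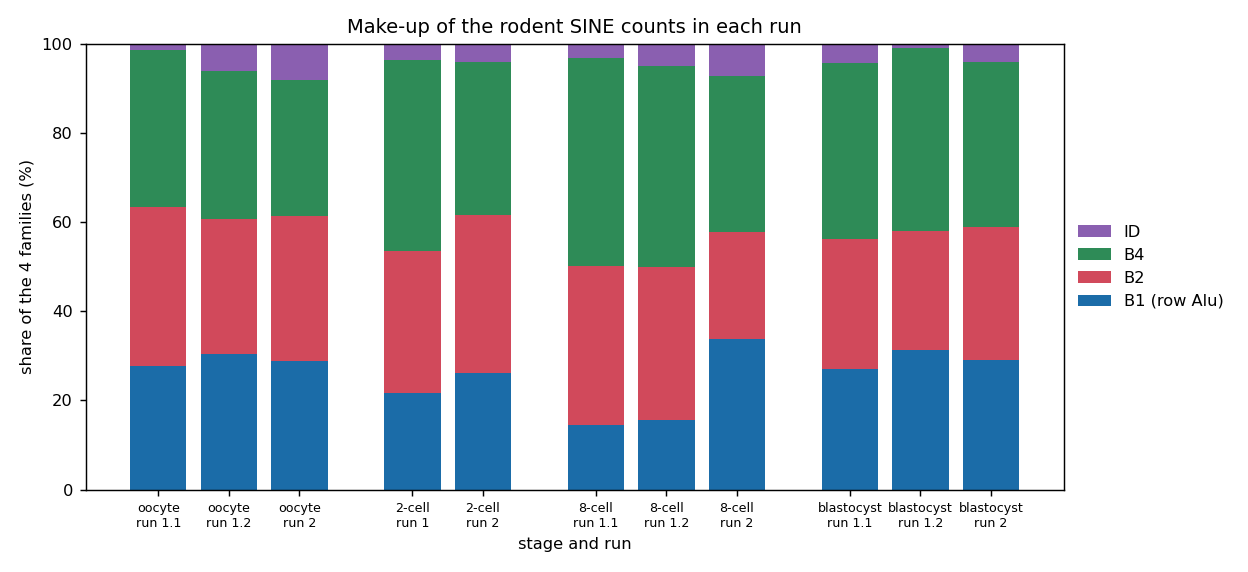
Share of each family among the counts of the 4 families (%, vertical axis) in each run, stacked from B1 at the bottom to ID at the top. B1 takes 14.4% and 15.6% in 8-cell runs 1.1 and 1.2 and 33.9% in 8-cell run 2, and ID takes 0.877% in blastocyst run 1.2.

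Within the 4, B2 and B4 kept together most closely. The ratio of B4 to B2 lay between 0.941 and 1.55 over all 11 runs, with an SD of its log2 of 0.247. This was the smallest SD of the 595 pairs among the 35 families with at least 100 counts in all and a count in every run, whose median was 1.63. Over the 4 stage means the SD for B4 with B2 was 0.212, at rank 13 of these pairs. Over runs the SD was 0.542 for B1 with B2 and 0.565 for B1 with B4, and between 1.01 and 1.07 for ID with each of the others. Pairs share libraries and run totals, so this is a description of likeness and says nothing of shared control. Counting error, which widens the SD of pairs with thin families, was not removed. The row SINE had as few as 3 counts in a blastocyst run, whereas B2 and B4 had 1635 or more in every run. B4 over B2 averaged 1.01 over oocyte runs (0.941 to 1.103), 1.16 over 2-cell runs (0.967 and 1.35), 1.36 over 8-cell runs (1.31 to 1.47) and 1.37 over blastocyst runs (1.23 to 1.55). All 8-cell and blastocyst runs lay above all oocyte runs, with ratios of means of 1.35 and 1.36. How many of the 595 pairs lie apart in these comparisons was not computed.

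Outside the 4, the closest families to B1 were ERVK (SD of the log2 ratio 0.518 over 11 runs) and ERV1 (0.605). ERVK holds the IAP elements, and both are LTR families. Those closest to B2 were ERV1 (0.444) and ERVK (0.467), and those closest to B4 were ERV1 (0.438) and L1 (0.637). ID was closest to MER1_type, a DNA transposon family (0.716), and to CR1, an ancient LINE family (0.781), both of which had their lowest share of the stage in oocyte run 1.1 and blastocyst run 1.2. MER1_type had 0.212% and 0.807% there, and CR1 had 0.0757% and 0.0542%.

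Stages were compared by the ratio of the means of their runs. A family was said to rise or fall when the means differed at least 2-fold and all runs of one stage lay above all runs of the other. The rule was applied to every family with at least 100 counts over both stages, which gives the background. It is a description and not a test, and the runs of 1 sample can share a shift.

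**Figure D3:**
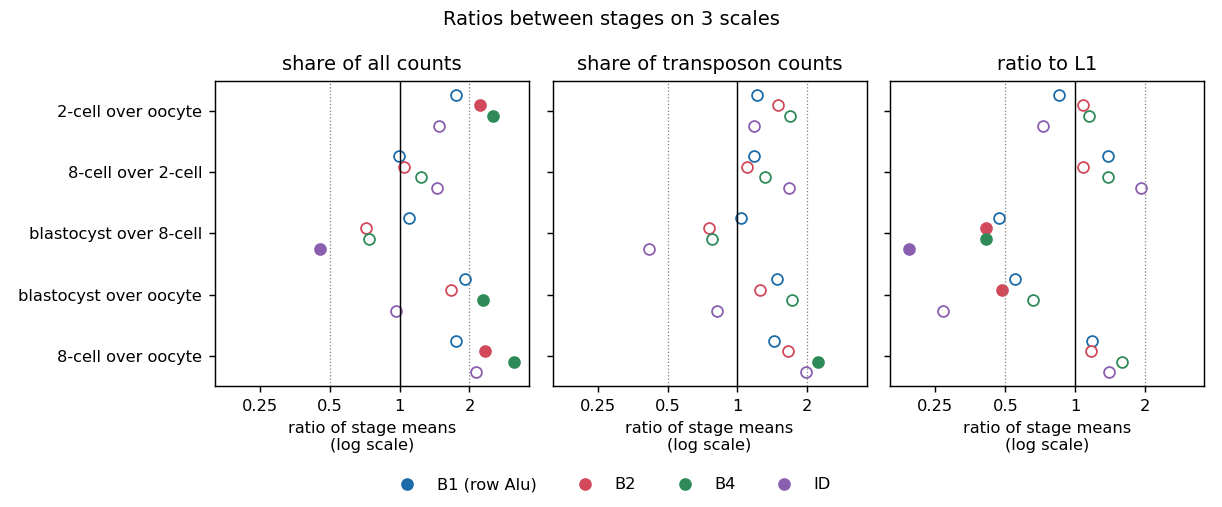
Ratio of stage means (horizontal axes, log scale) for 5 comparisons of stages on 3 scales. Filled points passed the rule of a 2-fold difference with runs apart, open points did not, and dotted lines mark ratios of 0.5 and 2. B4 in 8-cell embryos over oocytes, a comparison chosen after seeing the data, passed on 2 of the 3 scales. These were share of all counts (3.11, where 16.7% of 36 families rose) and share of transposon counts (2.23, where 8.33% of 24 rose). Relative to L1 it had 1.59 with overlapping runs and did not pass.

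From oocyte to 2-cell embryo, across fertilisation and the onset of embryonic transcription, all 4 families had a higher mean share. B4 rose 2.52-fold and B2 2.23-fold as share of all counts. B1 had 4.07% in 2-cell embryos and 2.31% in oocytes, a ratio of 1.76 with runs apart, and ID had 0.663% and 0.448% with overlapping runs. So 2 of 4 members rose, where 23.7% of the 38 families compared did (9 families). Runs lay apart at any fold for 3 of 4 members and for 31.6% of families. The median log2 ratio was 0.98 over the members and 0.52 over all families. With median-of-ratios size factors in place of totals B4 was at 1.57 and B2 at 1.42. With rRNA, simple, low-complexity and satellite rows left out of the total, B4 was at 1.70 and B2 at 1.51, and neither passed in either case. With all RNA genes left out B2 was at 1.85 and did not pass. Among transposon counts alone none of the 4 rose, where 4% of 25 families rose and 4% fell. There B4 had 7.53% in 2-cell embryos and 4.47% in oocytes, a ratio of 1.69, and B2 6.64% and 4.43%, a ratio of 1.499. For both, all 2-cell runs lay above all oocyte runs, as for 20% of families. B1 and ID had ratios of 1.22 and 1.18 with overlapping runs. Oocytes and 2-cell embryos shared no sequencing run, so a difference of stage cannot be told apart from one of sequencing run.

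From the 2-cell to the 8-cell stage none of the 4 families rose or fell on any of the 3 scales. As share of all counts 2.78% of 36 families rose and 5.56% fell, among transposon counts 0% and 4.35% of 23, and relative to L1 0% and 11.4% of 35. Ratios of 8-cell over 2-cell means of the share of all counts ran from 0.994 for B1 to 1.45 for ID, with overlapping runs for each. The B1 ratio moved with the weight of 8-cell run 2, to 0.708 without that run and to 1.48 with pooled counts. As share of transposon counts B4 had 9.94% in 8-cell and 7.53% in 2-cell embryos, a ratio of 1.32 with runs apart, where 8.7% of 23 families had all 8-cell runs above. The read names of 2-cell run 2 and 8-cell run 2 shared the label F132, taken here as 1 sequencing run. Whether that label names a single run was not tested. Between the runs with this label 8-cell over 2-cell was 1.41 for B1, 0.733 for B2, 1.11 for B4 and 1.86 for ID, as share of all counts.

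From the oocyte to the 8-cell stage, a comparison chosen after seeing the data because 1 sequencing run held both, B4 rose 3.11-fold and B2 2.33-fold. B1 had 4.04% in 8-cell embryos and 2.31% in oocytes, a ratio of 1.75. ID had 0.959% and 0.448%, a ratio of 2.14 with overlapping runs. Of the 4 members 2 rose, where 16.7% of 36 families did, and runs lay apart at any fold for 3 members and 25% of families. B2 did not pass with size factors (1.77), without RNA genes (1.95), without rRNA, simple, low-complexity and satellite rows (1.65) or with pooled counts (1.82). B4 passed in each of these. Among transposon counts B4 rose 2.23-fold, to 9.94% in 8-cell embryos against 4.47% in oocytes, where 8.33% of 24 families rose (2 families). It passed there without any 1 of the 6 runs, with ratios from 2.09 to 2.49. B2 had a ratio of 1.65 with runs apart, so that 2 members had all 8-cell runs above, as did 16.7% of families. In the shared sequencing run, 8-cell run 1.2 over oocyte run 1.2 gave 2.72 for B4, 2.30 for B2, 1.65 for ID and 1.03 for B1 as share of all counts, and 2.13, 1.79, 1.29 and 0.804 as share of transposon counts.

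From the 8-cell stage to the blastocyst, ID fell 2.21-fold as share of all counts, to 0.434% in blastocysts against 0.959% in 8-cell embryos, where 6.67% of 30 families fell (2 families). The call rests on 2 runs: the blastocyst over 8-cell ratio was 0.452 with all runs, 0.597 without blastocyst run 1.2 and 0.562 without 8-cell run 2, and the last 2 did not pass. Without rRNA, simple, low-complexity and satellite rows in the total it was 0.418 with overlapping runs, which did not pass. Among transposon counts ID had 0.534% in blastocysts and 1.29% in 8-cell embryos with overlapping runs, and on that scale 0% of 19 families rose or fell. B2 had 4.30% and 6.00%, B4 5.94% and 8.09%, and B1 4.43% and 4.04% of all counts, each with overlapping runs. Blastocysts and 8-cell embryos shared no sequencing run.

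From oocyte to blastocyst B4 rose 2.29-fold, and it was the only 1 of 4 members to do so, where 16.7% of 36 families rose. It did not pass with size factors (1.49), without RNA genes (1.99), without LTR rows (1.67) or without rRNA, simple, low-complexity and satellite rows (1.74). B1 had 4.43% in blastocysts and 2.31% in oocytes (ratio 1.91), and B2 4.30% and 2.57% (ratio 1.67), both with runs apart. At 1.5-fold these 3 would pass, as would 25% of families, and 25% had runs apart at any fold. ID had 0.434% and 0.448%. Among transposon counts none of the 4 rose or fell, where 12% of 25 families rose and 4% fell. There B4 had a ratio of 1.72 and B1 of 1.48 with runs apart, as had 20% of families. In the sequencing run of blastocyst run 1.2 and oocyte runs 1.1 and 2, blastocyst over oocyte was 3.02 for B4, 2.63 for B1, 1.88 for B2 and 0.387 for ID as share of all counts, and 2.26, 2.02, 1.42 and 0.370 as share of transposon counts.

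**Figure D4:**
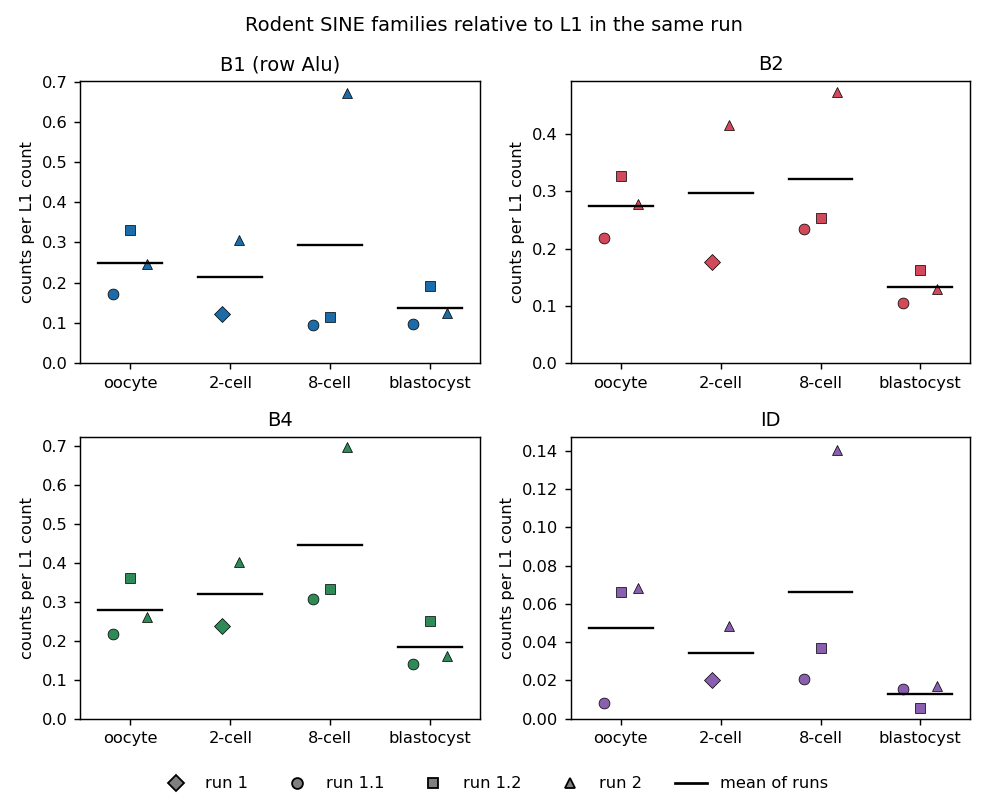
Counts of B1, B2, B4 and ID per L1 count in the same run (vertical axes), by stage. Markers name the run and bars the mean of the runs. The blastocyst runs of B2, at 0.105 to 0.162, lie below all other runs, and 8-cell run 2 is the highest run in each panel.

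SINE counts were also set against L1, whose proteins SINEs use to move. L1 itself averaged 9.43% of counts over oocyte runs (8.05% to 10.8%), 22.4% over 2-cell runs (14.7% and 30.1%), 21.7% over 8-cell runs (9.47% to 31.7%) and 33.0% over blastocyst runs (29.4% to 37.3%). The 4 families together had 0.616, 1.09 and 0.855 counts per L1 count in oocyte runs 1.1, 1.2 and 2, while the 2-cell pair had 0.557 and 1.17. The 8-cell trio had 0.657, 0.740 and 1.99, and the blastocyst trio 0.360, 0.609 and 0.433. The means were 0.852, 0.866, 1.13 and 0.468, and every blastocyst run lay below every oocyte run. The 8-cell mean rested on run 2: without it the mean was 0.699, lower than the oocyte and 2-cell means with overlapping runs. Blastocyst and 2-cell runs overlapped.

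In 2-cell embryos over oocytes no member rose or fell relative to L1, where 5.41% of 37 families rose and 18.9% fell, and the ratios ran from 0.727 for ID to 1.14 for B4. The median log2 ratio was -0.06 over the members and -0.71 over all families. In blastocysts over 8-cell embryos 3 of 4 members fell relative to L1, where 20.7% of 29 families fell (6 families) and 24.1% had all blastocyst runs below. B2 had 0.133 counts per L1 count in blastocysts and 0.321 in 8-cell embryos, B4 0.184 and 0.446, and ID 0.0128 and 0.0662. The median log2 ratio was -1.28 over the members and -1.17 over all families. 8-cell run 2 had the fewest L1 counts per total of its stage, at 9.47%. Without that run B2 was lower 1.84-fold and B4 1.74-fold with runs still apart, and neither passed. ID fell 2.26-fold, where 20% of 25 families fell without that run. B1 had 0.138 and 0.294 with overlapping runs, and its ratio was 0.468 with all runs and 1.31 without 8-cell run 2.

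In blastocysts over oocytes 1 of 4 members fell relative to L1, where 40% of 35 families did. B2 had 0.133 counts per L1 count in blastocysts and 0.275 in oocytes, a 2.07-fold difference, and 42.9% of families had all blastocyst runs below. B4 had 0.184 and 0.280 and ID 0.0128 and 0.0474, with overlapping runs. In the sequencing run of both stages blastocyst over oocyte was 1.05 for B4, 0.916 for B1, 0.653 for B2 and 0.140 for ID. In 8-cell embryos over oocytes none of the 4 rose or fell relative to L1, where 2.86% of 35 families rose and 20% fell. The ratios with all runs were above 1, from 1.17 for B2 to 1.59 for B4. Those of 8-cell run 1.2 over oocyte run 1.2, in the shared sequencing run, were all below 1. They were 0.349 for B1, 0.777 for B2, 0.921 for B4 and 0.558 for ID. For B1 the 8-cell over oocyte ratio was 1.18 with all runs and overlapping, and it turned to 0.422 with runs apart without 8-cell run 2, where 40% of 35 families fell. Likewise 8-cell over 2-cell was 1.38 for B1 with all runs and 0.493 without that run, where 13.3% of 30 families fell.

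MIR gave a measure inside the SINE class that does not use L1. It averaged 1.06% of counts over oocyte runs (0.979% to 1.13%), 1.51% over 2-cell runs (1.13% and 1.88%), 1.35% over 8-cell runs (1.14% to 1.62%) and 1.57% over blastocyst runs (0.967% to 2.05%). Per MIR count, oocyte runs held 2.10 to 2.72 B4 counts and the 2-cell pair 3.82 and 5.23. The 8-cell trio held 5.79 to 6.23, and the blastocyst trio 2.52 to 7.63. For B4 the 2-cell runs lay above the oocyte runs and the 8-cell runs above the 2-cell runs, while blastocyst runs overlapped with all other stages. B2 per MIR lay apart for 2-cell over oocyte (ratio 1.71) and 8-cell over oocyte (1.83), and overlapped in the other comparisons. B1 per MIR overlapped in every comparison, with ratios from 1.03 to 1.52. L1, outside the SINE class, also lay apart per MIR count for 2-cell over oocyte (ratio 1.63) and for blastocyst over oocyte (2.54). Its 8-cell and oocyte runs overlapped (1.74). How many of all families lie apart per MIR count was not computed. ID per MIR had a mean of 0.260 in blastocysts and 0.756 in 8-cell embryos, with all blastocyst runs below all 8-cell runs.

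The RNA genes from which these elements descend, or which share their polymerase, were counted in rows of their own. The row srpRNA, named for the signal recognition particle RNA related to B1, held 28 to 472 counts per oocyte run, 25 and 41 per 2-cell run, 0 to 39 per 8-cell run and 4 or 5 per blastocyst run. The 0 of 48685 counts in 8-cell run 1.1 allows a share of up to 0.00616%. B1 had at least 19.2 times as many counts as srpRNA in each of the other 10 runs. The row tRNA, related to B2 and ID, had means of 0.126%, 0.0840%, 0.380% and 0.0552% from oocyte to blastocyst, and its 8-cell runs ranged from 0.0246% to 1.07%. The row scRNA, small cytoplasmic RNA, averaged 0.424% over oocyte runs (0.213% to 0.705%), 0.0277% over 2-cell runs, 0.0395% over 8-cell runs and 0.109% over blastocyst runs. Per scRNA count, the 2-cell pair held 16.9 and 37.3 ID counts and the oocyte trio 0.106 to 3.47, and those ranges do not overlap. The scRNA share itself had a 2-cell over oocyte ratio of 0.0653, the lowest of 38 families. The ID share had a ratio of 1.48 with overlapping runs. How many of all families lie apart per scRNA count was not computed.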

How the data were processed

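Read counts per repeat family were deposited by the authors as 1 table of 47 families and 11 runs, per the file headers. Per the submitters' processing notes the build was mm9 and CASAVA was used. The aligner, the repeat annotation and the handling of multiply placed reads stay “not given in the sources used here”. Placements of 25-base reads were also deposited by the authors, with a score of unstated scale, used only for line counts, median scores and the sequencing run in the read names.

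Run values were computed with Python 3.11.15, pandas 2.3.3 and scipy 1.17.1. Runs of a stage were averaged with equal weight. Exact (Clopper-Pearson) 95% intervals and the limit that 3 counts allow cover counting error only, since no molecular identifiers are named. The code for the rule was run on simulated counts, which gives no error rate for these data. The transposon classes were assigned from repeat nomenclature. Named families are the 4 members, L1, a fixed list of related rows and the 2 families most like each member. The members and lists were chosen with earlier results of these data known. Scaling, averaging, the fold limit, the filter on counts and single runs were varied.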

Additional observations from a re-analysis of the deposited data

How the results depend on the processing

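As share of all counts, the ratio for the 4 families together kept its direction under the alternatives given here. Relative to L1 it did not for blastocyst over oocyte (0.549). Without 8-cell run 2 the direction relative to L1 also turned for 8-cell over 2-cell and 8-cell over oocyte. For 8-cell over oocyte it also turned within the shared sequencing run, at 0.681 against 1.32 with all runs. 2-cell over oocyte was 2.15, against 1.38 with size factors, 1.79 without RNA genes, 2.02 without LTR rows, 1.48 without rRNA, simple, low-complexity and satellite rows, 2.07 with pooled counts and 2.19 with geometric means, and 1.89 to 2.34 leaving out 1 run. It no longer passed with size factors, without RNA genes, without those 4 non-transposon rows and without oocyte run 1.1 (1.89). 8-cell over 2-cell was 1.12, against 1.44, 1.16, 1.02, 1.22 and 1.104 under the first 5 of these. It was 1.09 between the runs labelled F132 and 1.07 to 1.16 without 1 run. Blastocyst over 8-cell was 0.792, against 0.634 with size factors, 0.670 without LTR rows, 0.813 without the 4 non-transposon rows and 0.718 to 0.835 without 1 run. Blastocyst over oocyte was 1.90, against 1.26, 1.67, 1.38, 1.46 and 1.78 under the first 5, 2.38 within the shared sequencing run and 1.68 to 2.08 without 1 run. 8-cell over oocyte was 2.41, against 1.99, 2.09, 2.06, 1.80, 2.28 and 2.45 under all 6, 2.01 within the shared sequencing run and 2.12 to 2.62 without 1 run. It did not pass at 1.99 or 1.80. That comparison and the removal of the 4 non-transposon rows were chosen after seeing the data. For blastocyst over oocyte 1 member was called at 2-fold and 3 at 1.5-fold. For single members 209 of 232 alternatives gave the same call, 16 lost one and 7 gained one. Most member comparisons had no call to lose, so the 209 are mostly results that stayed without a call. All 16 losses fell on results called with all runs. Calls of B2 and B4 for 2-cell over oocyte and of B2 for 8-cell over oocyte were each lost under some alternatives. So were those of B4 for blastocyst over oocyte and of ID for blastocyst over 8-cell. The rises of B2 and B4 from oocyte to 2-cell were lost with size factors (1.42 and 1.57), where the 8-cell over oocyte rise of B4 passed at 2.41. The cause was not tested. No paired analysis was possible because each stage is 1 sample and its run numbers do not mark shared embryos. Over stage means in place of runs, B2 remained the family closest to B4, but B4 was not the closest to B2, coming after MER1_type and MER2_type. The nearest families outside the 4 became AcHobo for B1, MER1_type for B2 and B4 and MER2_type for ID. The 58 ID counts of blastocyst run 1.2 are the thinnest value.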
